A study of Drosophila melanogaster with 6 samples.

Results

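Peroxins are the proteins that build peroxisomes, the organelles in which very long chain fatty acids are shortened, ether lipids are begun and hydrogen peroxide is made and destroyed. Enzymes of the peroxisome lumen are made in the cytosol, picked up by the receptor Pex5 and passed through a docking complex that includes Pex13. Pex5 is then tagged with ubiquitin by a membrane complex of RING proteins, among them Pex2 and Pex10, and pulled back out by an ATPase complex with Pex6. Pex3, Pex16 and Pex19 place proteins in the peroxisomal membrane, and Pex11 acts when peroxisomes grow and divide. In Drosophila, peroxin mutants are known for raised very long chain fatty acids and for failure of male meiosis. The fat body is the larval tissue that stores lipid and takes the place of liver and adipose tissue.

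The genes described here are 8 peroxins, Pex2, Pex3, Pex5, Pex6, Pex10, Pex11, Pex13 and Pex16, found on the array by the gene symbol or Entrez number of their probe sets. Of the 8, 6 have a probe set of their own, out of 11982 genes with a named probe set. The probe set of Pex6 is annotated to Pex6 and to the neighbouring gene Hao, a hydroxyacid oxidase, so that its signal belongs to no single gene. Pex11 (CG8315, now named Pex11ab) has no probe set under its name in the annotation used and was not analysed here. The genes lie on chromosome arms X, 2R and 3L, whereas the deletion Df(3R)ro80b that all samples carry is on 3R.

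Fat bodies came from delg mutant larvae (delg613/Df(3R)ro80b, 3 samples) and from control larvae (+/Df(3R)ro80b, 3 samples), so that control and mutant both had the deletion and only the mutant had the delg613 allele, which has a stop codon. Delg, encoded by Ets97D (CG6338), is an Ets transcription factor and the counterpart in flies of mammalian GABP alpha, and the mutant genotype is lethal in pupal stages. The paper calls the mutant combination a null background for delg and the control animals heterozygous, so the control is not wild type. Each sample, a separate biological replicate, was a pool of 60 fat bodies on 1 Affymetrix array. An age of 6 days is stated for every sample, but in wording that calls the control larvae mutant too, and elsewhere the study took younger controls to match the stage of the slower mutants. For these arrays the paper gives late L3, the end of larval life, and calls the control animals wandering. The age of these controls, and whether their stage equalled that of the mutants, are still not certain. Stage and genotype cannot be told apart. The series compared the genotypes to ask whether transcripts for mitochondrial proteins depend on Delg, and the peroxins are read from the same arrays.

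Values are MAS5 signals, the array software's linear estimate of transcript level for a probe set, scaled to the same trimmed mean on every array. A signal has no absolute unit, and signals of different probe sets are not levels that can be ranked. Fold changes are differences of mean log2 signals, mutant minus control, tested with limma over 18769 probe sets with Benjamini-Hochberg adjustment. A gene was called at an adjusted p under 0.05. Only 3 arrays per genotype limit the precision. In pooled tissue, fewer cells with a transcript and less transcript per cell cannot be told apart.

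The signal of delg itself was 71.7, 87.1 and 91.9 in mutant larvae and 135, 122 and 213 in control larvae, and this difference did not pass the test (log2 fold change -0.87, adjusted p = 0.267 from limma). Control replicate 2 stood apart from all other samples. The summed signal of 6 salivary glue genes was 281 there and 196915 to 314596 in the others, and that of the fat body gene Fbp1 was 1103 there and 40320 to 65884 elsewhere. The glue genes mark the end of larval life and are also the salivary gland list among the tissue markers. All samples but control replicate 2 thus carried much transcript of a salivary gland marker. Whether control replicate 2 stood apart by stage, by less salivary gland in the pool or by both was not tested. Lsp2, a fat body storage protein, ranged from 57153 to 75546 over the 6 samples and was high in every sample. Of 4 genes listed for oenocytes, Cyp4g1, FASN3 and FarO had signals of at most 162. The remaining listed gene, kar (CG12286), is not established here as an oenocyte marker. Its signals were 1171 to 1566 in the mutant and 394 to 910 in the control. All 4 summed to 1318 to 1646 in the mutant and 447 to 1141 in the control. This sum came mostly from kar and is no measure of oenocytes. The 2 measured muscle genes had signals of at most 97.3. Hemocyte markers (3 of 3 measured) summed to 1067 to 1920 in the mutant and 361 to 847 in the control, and Malpighian tubule markers (2 of 4 measured, Irk3 and ZnT35C) to 878 to 1126 and 2913 to 6207. The part of other tissues in the peroxin values was not tested.

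Pex5, the import receptor, fell to about 0.50 of its control level and was the only 1 of the 6 genes to be called. Pex10 and Pex3 were also lower in every mutant sample than in every control sample without being called, Pex16 was lower on average, and Pex2 and Pex13 were higher on average. The median log2 fold change of the 6 genes was -0.52, against -0.09 for all genes. Of all genes, 3.75% were called lower and 4.45% higher, which compares with 1 and 0 of the 6 peroxins.

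Every mutant sample lay below every control sample in 3 of the 6 peroxins, where 15.6% of all genes did so, and every mutant sample lay above every control sample in 0, where 14.5% did so. At an unadjusted p under 0.05 from limma, 3 peroxins were lower and 1 was higher, next to 11.7% and 11.3% of all genes. A fold of at least 1.5 was found in 2 peroxins that were lower (27.5% of all genes) and in 1 that was higher (21.6%). With 6 genes, each of these shares rests on very few members.

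Pex5 (CG14815) binds the targeting signal at the end of most peroxisomal enzymes. Its signals were 1419, 1716 and 1341 in mutant replicates 1, 2 and 3 and 3194, 2643 and 3099 in control replicates 1, 2 and 3. The genotypes were well apart, with mutant replicate 2 the highest of the mutants and control replicate 2 the lowest of the controls. Mean signals were 1492 ± 198 (SD, n = 3) and 2979 ± 295 (SD, n = 3), a log2 fold change of -1.0 (standard error, SE, 0.18, 95% confidence interval -1.42 to -0.58, adjusted p = 0.0163 from limma). Of all genes, 15.2% had a lower fold change than Pex5. The call was lost without mutant replicate 1 (adjusted p = 0.0809), mutant replicate 3 (0.0990) or control replicate 3 (0.0795), and with a variance prior that ignored the signal level (0.150), while the log2 fold change with single samples omitted stayed between -1.11 and -0.93.

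Pex13 (CG4663), a membrane protein at which loaded Pex5 docks, was not called. Its signals were 1992, 2350 and 1835 in the mutant and 1919, 1141 and 1859 in the control. Control replicate 2 was the lowest of all samples, and the other controls lay within the range of the mutants. Its log2 fold change was 0.36 (SE 0.24, 95% confidence interval -0.19 to 0.91, adjusted p = 0.492 from limma), and it was 0.12 without control replicate 2.

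**Figure D1:**
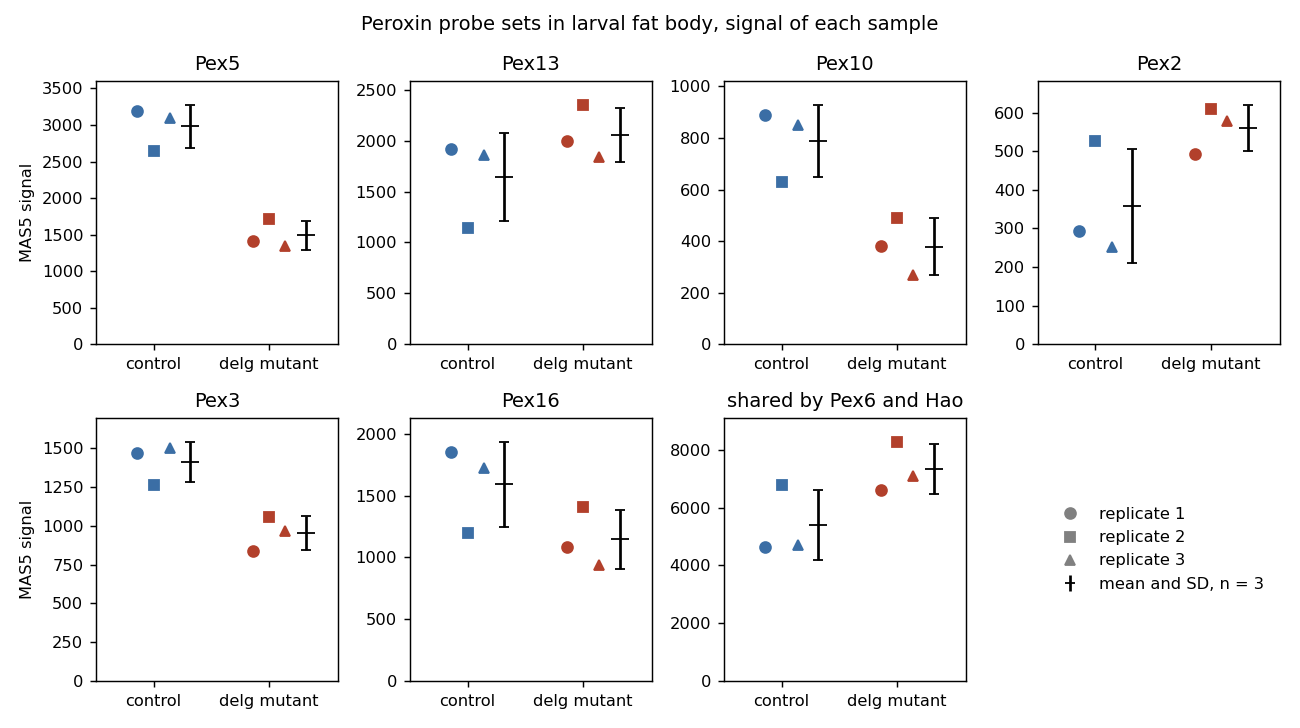
MAS5 signal (y axis, linear from 0) of each peroxin probe set in each control (blue) and delg mutant (red) sample, with replicates by marker shape and the mean and SD (n = 3) in black. Pex5, Pex10 and Pex3 have no overlap between genotypes, and control replicate 2 (blue square) lies apart from the other controls in every panel.

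Pex10 (CG7864) and Pex2 (CG7081) belong to the same ubiquitin ligase complex, and their fold changes lay on opposite sides of 0. Pex10 had signals of 379, 488 and 267 in the mutant and of 887, 628 and 849 in the control. The groups did not overlap, but the mutant samples spread widely. The log2 fold change was -1.09 (SE 0.28, 95% confidence interval -1.73 to -0.45), slightly larger than that of Pex5, and it missed the threshold (adjusted p = 0.0588 from limma). It passed without control replicate 2 (log2 fold change -1.24, adjusted p = 0.0279), with quantile normalization (0.0405), with brighter probe sets only (0.0439) and with array weights (0.0136). Without mutant replicate 3, the lowest sample, the log2 fold change was -0.86 (adjusted p = 0.207).

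Pex2 had signals of 493, 609 and 578 in the mutant and of 294, 526 and 252 in the control. Control replicate 2 lay among the mutants, and the other controls lay below every mutant sample. The log2 fold change was 0.72 (SE 0.31, 95% confidence interval 0.02 to 1.42, adjusted p = 0.246 from limma). Without control replicate 2 it was 1.04 and passed the test (adjusted p = 0.0212), as it did with array weights (0.0318). The array weights, the same for every gene, were lowest for control replicate 2 (0.379) and highest for control replicate 3 (2.01). Weighting and leaving out control replicate 2 are therefore not independent alternatives. Without control replicate 3 the log2 fold change of Pex2 was 0.51 (adjusted p = 0.518). The difference in Pex2 thus depended on which controls were counted.

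The Pex10 and Pex2 signals of an array can be set against each other without regard to the scaling of that array, a comparison chosen after the values were seen. The ratio of Pex10 to Pex2 was 0.769, 0.803 and 0.461 in the mutant and 3.02, 1.19 and 3.37 in the control. All mutant ratios lay below all control ratios, control replicate 2 being the nearest to the mutants. The ratio was 3.50-fold lower in the mutant. The ratio of Pex5 to Pex13, chosen in the same way, was 0.712, 0.730 and 0.731 in the mutant and 1.66, 2.32 and 1.67 in the control. It was 2.57-fold lower in the mutant, again with no overlap. Since both pairs were picked for fold changes on opposite sides of 0, these ratios are descriptions and were not tested. Such a ratio does not show which of the paired probe sets differed.

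**Figure D2:**
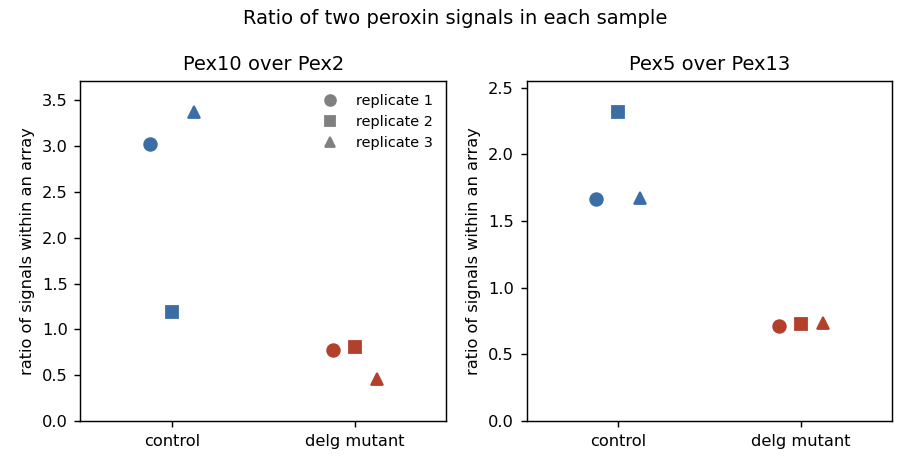
Ratio of Pex10 to Pex2 signal (left) and of Pex5 to Pex13 signal (right) within each array (y axis, linear from 0), for control (blue) and delg mutant (red) samples, with replicates by marker shape. The mutant ratios lie between 0.461 and 0.803 and all control ratios are 1.19 or higher.

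Pex3 (CG6859) and Pex16 (CG3947) belong to the machinery that brings membrane proteins to the peroxisome, Pex3 as the anchor for Pex19. Pex3 had signals of 836, 1054 and 965 in the mutant and of 1474, 1266 and 1503 in the control, with no overlap. This gave a log2 fold change of -0.57 (SE 0.19, 95% confidence interval -0.998 to -0.15, adjusted p = 0.120 from limma). Leaving out single samples moved it between -0.65 and -0.48, and it was not called in any of these fits, although it was with array weights (adjusted p = 0.0358).

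Pex16 had signals of 1086, 1411 and 941 in the mutant and of 1852, 1200 and 1723 in the control. Mutant replicate 2 lay above control replicate 2, so that the groups overlapped through this pair of samples. Its log2 fold change was -0.47 (SE 0.24, 95% confidence interval -1.02 to 0.08, adjusted p = 0.347 from limma), and -0.66 without control replicate 2 (adjusted p = 0.0900). The shared probe set of Pex6 (CG11919) and Hao had signals of 6602, 8283 and 7091 in the mutant and of 4649, 6781 and 4719 in the control. Control replicate 2 again lay with the mutants. The difference was 0.46 on the log2 scale (adjusted p = 0.285 from limma), and 0.64 without control replicate 2, where it passed the test (adjusted p = 0.0398).

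Control replicate 2, the sample with little glue gene transcript, fell outside the range of the other controls in all 6 peroxins, as it did in 83.0% of the 7804 genes above the median signal. Relative to the mean log2 signal of the other controls it was higher by 0.95 in Pex2, and lower in Pex3 (-0.23), Pex5 (-0.25), Pex10 (-0.47), Pex16 (-0.57) and Pex13 (-0.73). In Pex2, Pex3, Pex5, Pex10 and Pex16 this placed it on the mutant side of the other controls. Control replicates 1 and 3 differed by a median of 0.06 on the log2 scale over the 6 peroxins, compared with 0.30 over the brighter genes. These sets were not matched for signal level, so the gap is not a trait of the peroxins.

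**Figure D3:**
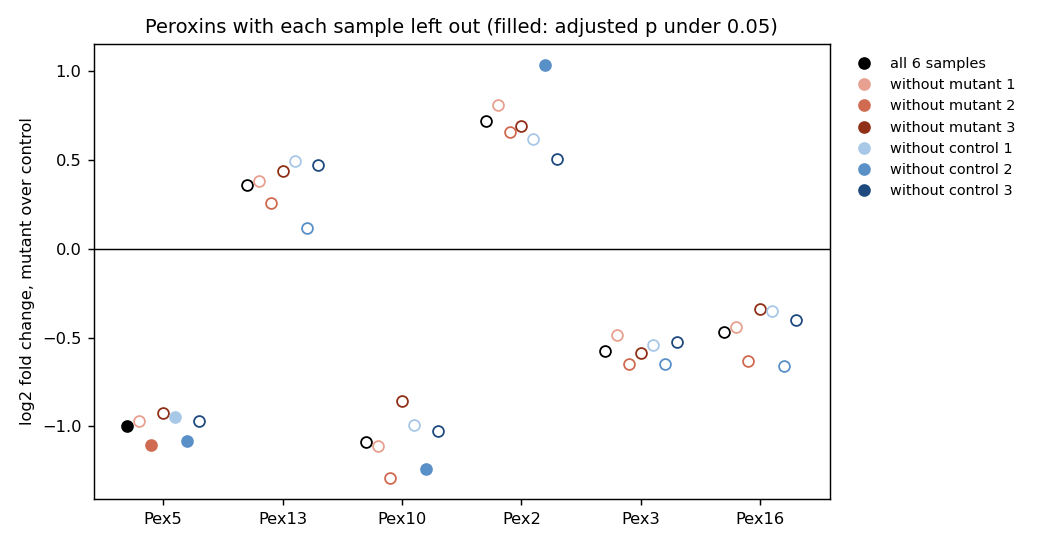
Log2 fold change of each peroxin, mutant over control (y axis), with all 6 samples (black) and with each mutant (red shades) or control (blue shades) sample left out, filled where the adjusted p from limma is under 0.05. Every gene keeps its sign in these fits, Pex5 is filled in 4 of 7, and Pex2 and Pex10 are filled only without control replicate 2.

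The other peroxins measured add 1 more gene that fell. Pex19 (CG5325), the cytosolic carrier that brings membrane proteins to Pex3, had signals of 1014, 1140 and 1371 in the mutant and of 1838, 3298 and 2365 in the control. Unlike in Pex5, control replicate 2 was the highest sample. The log2 fold change was -1.06 (SE 0.25, adjusted p = 0.0420 from limma), and a second probe set gave -1.08 (adjusted p = 0.0462). For the brighter probe set, omitting any mutant array or control replicate 3 ended the call (adjusted p up to 0.155 among these). It was also lost with median centring (0.0833), with 100 added before log2 (0.0504) and with no trend in the variance prior (0.202). Pex14, the docking partner of Pex13 and the neighbour of Pex16 on the chromosome, had a log2 fold change of -0.40 (95% confidence interval -0.87 to 0.07, adjusted p = 0.346 from limma).

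Of 5 further genes listed as peroxins with a probe set of their own, 1 fell and 0 rose, next to 3.75% and 4.45% of all genes. Besides Pex19 and Pex14 the 5 genes were Pex23 (log2 fold change -0.10, adjusted p = 0.893 from limma), Pex7 and CG33474, the last listed without a gene name in the annotation. Pex7, which in yeast and mammals is the receptor of a second targeting signal, had signals of 3.84 to 49.8, below the median of every array. CG33474 had signals of 34.0 to 70.0, near the array medians of 55.5 to 75.5. Over all 11 measured peroxins the median log2 fold change was -0.40, and 8 lay below 0. Among all 11982 genes the median was -0.09, and 6519 lay below 0.

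Transcripts for the enzymes and carriers of peroxisomes were lower where they were called in the fit used throughout, as Pex5 was. Some alternatives also called genes higher. Of 22 other peroxisome genes with a probe set of their own, 6 fell and 0 rose at an adjusted p under 0.05 from limma, next to 3.75% and 4.45% of all genes, and 9 were lower and 5 higher at an unadjusted p under 0.05, next to 11.7% and 11.3%. Their median log2 fold change was -0.44. With the 5 further peroxins, 7 of 27 genes fell. Leaving out single samples gave 3 to 11 of these, with 11 when control replicate 2 was omitted, 4 for mutant replicate 2, and 3 for mutant replicate 1, mutant replicate 3 or control replicate 3. With no trend in the variance prior 2 were left, Acox57D-d and PMP34. Non-overlapping groups were found in 9 genes that were lower and in 5 that were higher (15.6% and 14.5% of all genes).

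Peroxisomal beta-oxidation had 9 measured genes, of which 3 fell and 0 rose, next to 3.75% and 4.45% of all genes. The largest fall was in Acox57D-d, an acyl-CoA oxidase, the enzyme type that takes the first step and makes hydrogen peroxide. It had signals of 611, 690 and 645 in the mutant and of 2196, 3252 and 2793 in the control, far apart (log2 fold change -2.07, SE 0.20, adjusted p = 0.00119 from limma). Its neighbour Acox57D-p fell by 1.27 on the log2 scale (adjusted p = 0.0231), and Mfe2, the multifunctional enzyme of the next steps, by 0.89 (adjusted p = 0.0263). Acox57D-p stayed called only when mutant replicate 2 or control replicate 2 was omitted (adjusted p up to 0.117 otherwise), and Mfe2 only for control replicate 2 (up to 0.138). Acox3, another acyl-CoA oxidase, had signals of 9123, 10051 and 8817 in the mutant and of 6796, 3180 and 5699 in the control. These did not overlap either, but lay the other way and were not called (log2 fold change 0.90, SE 0.28, adjusted p = 0.108). The values of the acyl-CoA oxidase probe sets lay on both sides of 0.

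PMP34, in mammals a carrier of coenzyme A and nucleotides in the peroxisomal membrane, had signals of 349, 423 and 469 in the mutant and of 1516, 1368 and 1799 in the control (log2 fold change -1.92, SE 0.21, adjusted p = 0.00183 from limma). It was the only 1 of 3 listed carriers with a named probe set, and it was called with any one sample left out, as was Acox57D-d. Gnpat, the first enzyme of ether lipid synthesis, fell by 1.13 (adjusted p = 0.0237), a call that ended when any mutant array or control replicate 3 was omitted (up to 0.104). Agps, the next enzyme, had a log2 fold change of -1.32 at signals of 28.1 to 237, which was not called (adjusted p = 0.274).

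Next to 3.75% of all genes, 1 of 7 other enzymes listed as peroxisomal fell. This was Phyhd1 (CG14688), a relative of phytanoyl-CoA hydroxylase, with signals of 1144, 1886 and 1269 in the mutant and of 13082, 4639 and 8970 in the control (log2 fold change -2.55, SE 0.37, adjusted p = 0.00657 from limma). All controls lay above all mutants, with control replicate 2 the nearest, and the call held with any one sample left out (adjusted p up to 0.0478). It was lost with no trend in the variance prior (0.0770). Catalase (Cat), which destroys hydrogen peroxide, had a log2 fold change of -0.38 (95% confidence interval -0.91 to 0.15, adjusted p = 0.434). Daao1, a D-amino acid oxidase, and ry, xanthine dehydrogenase, were higher in each mutant sample than in each control sample without being called (log2 fold changes 0.82 and 0.69, adjusted p = 0.0587 and 0.133). Daao1 was called higher with median centring (adjusted p = 0.0334 from limma), brighter probe sets only (0.0438) and array weights (0.0250). For ry this was so with array weights (0.0483).

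Peroxisomes divide with proteins that also divide mitochondria. Drp1, the dynamin that cuts the membrane, had signals of 961, 1121 and 990 in the mutant and of 1551, 1636 and 1620 in the control. There was no overlap and a small spread (log2 fold change -0.65, SE 0.17, adjusted p = 0.0618 from limma). Drp1 passed without control replicate 2 (0.0448), with quantile normalization (0.0374), with brighter probe sets only (0.0369) and with array weights (0.0210). With the methods' t-test after adjustment the value was 0.0493. Fis1, a membrane protein of fission, had a log2 fold change of 0.79 (adjusted p = 0.147; a dimmer probe set 0.46, adjusted p = 0.708), and Tango11, the homologue of the mammalian fission factor Mff, of 0.31 (adjusted p = 0.420). None of the 3 passed limma's test after adjustment in the fit used throughout. At an unadjusted p under 0.05, 1 was lower and 1 higher, next to 11.7% and 11.3% of all genes.

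**Figure D4:**
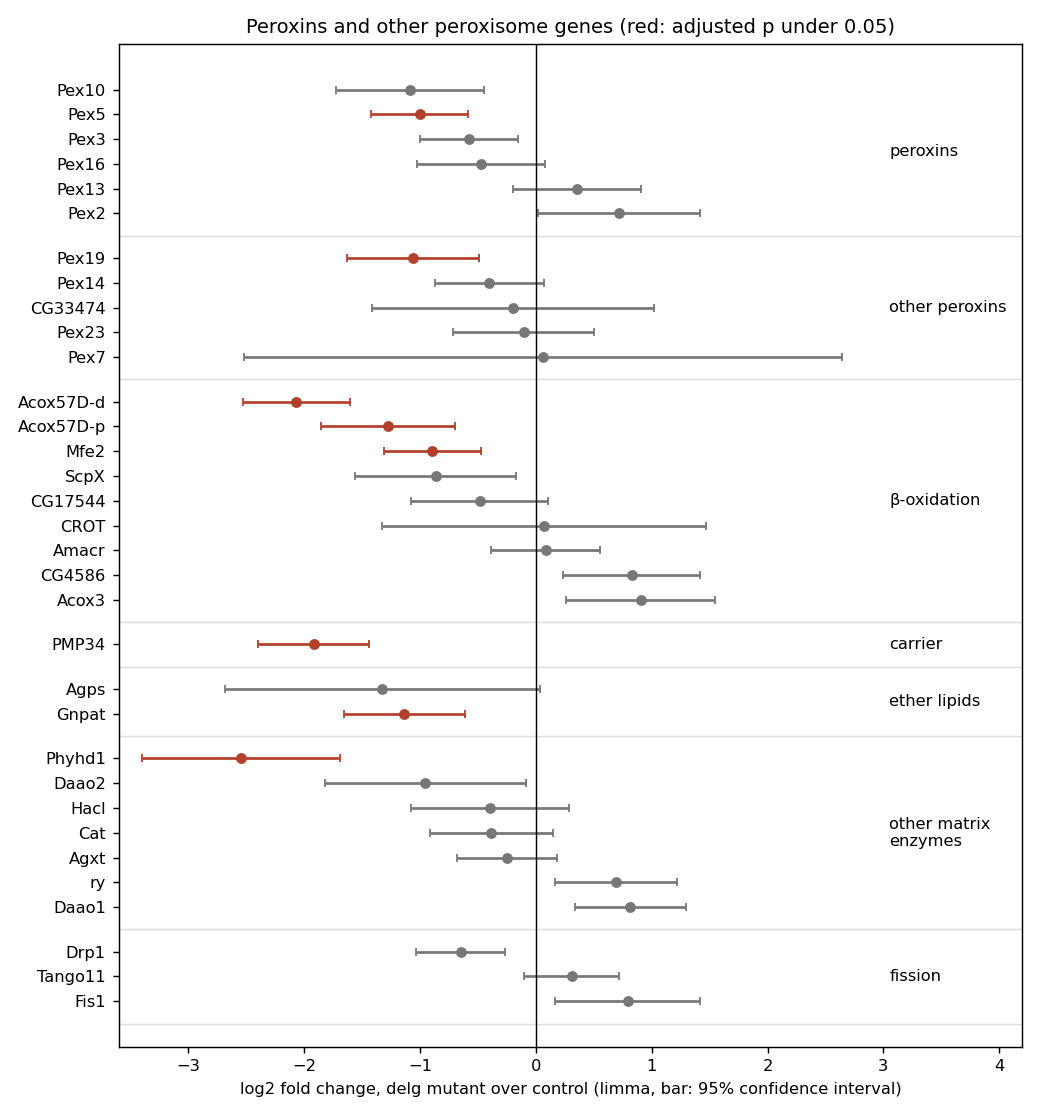
Log2 fold change, delg mutant over control (x axis), with its 95% confidence interval from limma, for the measured peroxins and the other peroxisome genes by group, in red where the adjusted p is under 0.05. The red genes, Pex5, Pex19, Acox57D-d, Acox57D-p, Mfe2, PMP34, Gnpat and Phyhd1, all lie below 0.

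Across the 6 samples, the gene whose signals were nearest to those of each peroxin was found by the Euclidean distance of log2 signals, each centred on its own mean, among 7803 brighter genes. These were CG7966 for Pex5 (distance 0.12), pall for Pex3 (0.14), Dbp80 for Pex13 (0.15), CG10958 for Pex16 (0.18), Aladin for Pex2 (0.28) and CG11655 for Pex10 (0.29). Second to Pex5 was Mfe2 (0.18), a peroxisomal enzyme named here after its place was seen. Mfe2 had signals of 2350, 2619 and 2136 in the mutant and of 4891, 3740 and 4593 in the control, in the same order as Pex5 within both genotypes. With 6 points in 2 genotypes, such a distance describes these samples and is no test.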

How the data were processed

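Larval fat body RNA of 3 delg mutant and 3 control samples was amplified in 2 cycles of cDNA synthesis, labelled with biotin and hybridised to the Affymetrix Drosophila Genome 2.0 array. The authors made the deposited intensities, which are linear MAS5 signals, with GCOS 1.4, per the labels. Their mean with 2% trimmed from each end was checked to be 500 on every array. Of 18952 probe sets, 183 array controls were left out. Signals were converted to log2 with no added constant or filter.

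Probe sets were named by the platform's annotation, with symbols renewed from Entrez numbers in a RefSeq gene table (Release 6 plus ISO1 MT, for names and neighbours only): 13647 probe sets have 1 symbol, 402 several and 4720 none. A gene was read from its brightest probe set. The genotypes were compared in R 4.3.3 by limma 3.58.1 (lmFit, eBayes with a trend and no replicate block), and p-values were adjusted by Benjamini-Hochberg across the 18769 probe sets. The fit was also run on simulated data with independent noise for each probe set and no outlying array. The changed genes it called had the sign they were given, which the run required in order to finish. Most changed genes were not called. Such data do not show how the fit treats a sample like control replicate 2.

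The text names the 8 peroxins and the other listed peroxins with a probe set of their own, the genes of fixed lists of other peroxisome genes that passed the threshold or else had the smallest p, the targeted gene and the nearest gene of each peroxin; other genes were named after their values were seen. The members and lists were chosen with earlier results of these data known. Alternatives were median centring, quantile normalization, 100 added before log2, brighter probe sets only, a replicate block, each array left out, no trend, array weights, averaging the probe sets of a gene and the methods' t-test.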

Additional observations from a re-analysis of the deposited data

How the results depend on the processing

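Under the 16 alternatives the median log2 fold change of the 6 peroxins stayed between -0.66 and -0.38, and each of the 6 kept its sign. Not all 16 could move these values. The replicate block, no trend, both t-tests, brighter probe sets only and averaging of probe sets leave them unchanged by construction. Centring each array on its median raised every log2 fold change by 0.14 (the median of all genes went from -0.09 to 0.06) and took the share of rises among all called genes from 54.3 to 70.5%. Called lower were 2 peroxins with quantile normalization and with brighter probe sets only, 3 with array weights and with the methods' t-test without adjustment, and 0 with no trend, with the replicate block and with the adjusted t-test. Called higher was 1 with array weights. Leaving out single samples gave 0 to 2 lower and 0 to 1 higher, the counts of 2 and 1 being without control replicate 2. None was lower when mutant replicate 1, mutant replicate 3 or control replicate 3 was omitted. Of the other 27 peroxisome genes, 7 were called lower and 0 higher. The number lower was 3 with the replicate block, 2 without trend, 3 with the adjusted t-test, and 3 to 11 with single samples left out, being 11 without control replicate 2, 4 without mutant replicate 2 and 3 when mutant replicate 1, mutant replicate 3 or control replicate 3 was omitted. The number higher was 1 with centring, 1 with brighter probe sets only, 4 with array weights, 3 with the unadjusted t-test, and 0 to 1 with single samples left out (1 without control replicate 1).

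Replicate numbers do not pair these samples: the residuals of those with the same number correlated by -0.04, -0.07 and -0.01. Of the 8 genes called lower in all, Acox57D-d and PMP34 kept the call without trend and with the adjusted t-test, and the other 6 lost it (adjusted p from 0.0770 to 0.202 and from 0.0658 in Pex5 to 0.173 in Pex19, with 0.106 in Phyhd1). Centring also ended the calls of Pex19 (0.0833) and Mfe2 (0.0687). With the replicate block, Pex5 had an adjusted p of 0.0662 and Pex19 of 0.0702. Uncalled values changed sign for Pex23 with centring (0.041), for Pex7, Amacr and CROT with array weights (-0.50, -0.048 and -0.41), and with single samples left out for Pex7 (-0.91 to 0.94), CG33474 (-0.34 to 0.053), Amacr (-0.087 to 0.17) and CROT (-0.77 to 0.49; called lower without control replicate 2, adjusted p = 0.0366). Over all genes, 449 were called lower and 533 higher; these were 287 and 686 with centring, 215 and 338 with the block, 57 and 106 without trend, 857 and 852 with array weights, 1250 and 1227 with the unadjusted t-test, 107 and 137 with the adjusted one, and 122 to 633 and 178 to 714 with single samples left out. The causes were not tested. Low signals limit Pex7 and CG33474, whose log2 fold changes had 95% confidence intervals of -2.51 to 2.64 and -1.42 to 1.02.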
